A study of Mus musculus with 4 samples.

Results

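The clustered replication-type histone genes were studied across the cell classes of the mouse brain and between brains digested with and without inhibitors. The family was chosen with earlier results of these data known. Its members were taken by symbol alone, as every gene named Hist, a cluster number and h, and no measured value entered that rule. This gave 67 of the 31053 genes in the matrices, namely 6 genes for linker histone H1, 18 for H2A, 18 for H2B, 12 for H3 and 13 for H4. Whole brains of 4 male C57BL/6J mice aged 90 days were dissociated with enzymes, and droplet-based 3′ single-cell RNA sequencing gave 1 library for each animal. For 2 animals (replicates 1 and 2 without inhibitors) no inhibitor was added. For the other 2 (replicates 1 and 2 with inhibitors), actinomycin D and triptolide, which block transcription, were present in the perfusion, dissection and digestion buffers, and anisomycin, which blocks translation, was present during dissection and digestion. All 4 animals shared the enzymatic digestion and the single batch of the labels, so the comparison was between 2 digested groups and held no undigested brain. The question was which histone RNAs differed between these groups, and in which cells.

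Core histones H2A, H2B, H3 and H4 form the spool around which DNA is wound, and H1 binds the linker DNA between spools. Replication-type histone genes lie in clusters, mostly lack introns and are transcribed mainly while a cell copies its DNA. Their messenger RNAs usually end just behind a short stem-loop bound by the stem-loop binding protein Slbp and carry no poly(A) tail, whereas replacement histones such as H3f3b are made throughout the cell cycle from ordinary polyadenylated messages. Some replication-type genes also give polyadenylated messages in cells that do not divide. The 3′ chemistry used here captures RNA by its poly(A) tail, so RNAs without a tail are poorly sampled, and the adult brain holds few dividing cells.

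The members lay on 4 chromosomes of the mouse genome (GRCm38): 54 on chromosome 13 between 21715763 and 23934851, 10 on chromosome 3 between 96219865 and 96270132, 2 on chromosome 11 and 1 on chromosome 6. In the GENCODE annotation, 62 of the 67 had a single exon in the transcript used, the annotated coding transcript with the longest 3′ UTR. A stem-loop was found in the annotated 3′ UTR of 45 members, and the 4 forms that the genes named here carry are shown because they mark which RNAs can end without a poly(A) tail. The first was found in 25 members, among them Hist1h1c, Hist1h1d, Hist1h1e, Hist1h2ac, Hist1h2bg and Hist2h2aa1, the second in 7 H4 genes, among them Hist1h4d and Hist1h4h, and the third in 6 members. Hist1h4i and Hist2h4 shared another form.
stem-loop of 25 members: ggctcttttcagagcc
stem-loop of 7 H4 members: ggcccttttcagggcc
stem-loop of 6 members: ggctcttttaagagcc
stem-loop of Hist1h4i and Hist2h4: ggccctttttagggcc

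The annotated transcript ended within 100 bases of the stem-loop in 22 members, ran on for at least 100 bases in 23, and held no stem-loop in the 3′ UTR in 22. All 23 members that ran on had at least 1 UMI (unique molecular identifier, a tag that marks a single RNA molecule), with a median of 75 UMIs per gene over the kept cells. Of the 22 that ended near the stem-loop, 20 had a UMI, with a median of 6 and a maximum of 1086 for Hist1h4h. Of the 22 with no stem-loop in the annotated 3′ UTR, 16 had a UMI, with a median of 3 and a maximum of 9240 for Hist1h2bc. Many of these 22 had an annotated 3′ UTR of only 0 to 2 bases, too short to hold a stem-loop. Whether those genes lack a stem-loop cannot be told from this annotation. Genes annotated beyond the stem-loop thus held 41.2% of the members' UMIs, genes ending near it 8.20% and genes with none annotated 50.6%. Of the 9585 UMIs in the last group, 9240 were of Hist1h2bc. A poly(A) signal (AATAAA or ATTAAA) lay in the last 40 bases of 12, 1 and 3 transcripts of the 3 groups. The linker genes whose values are given next were among those that run on, by 840 bases in Hist1h1c (chr13:23738808-23740367, plus strand), 4884 in Hist1h1d (chr13:23553262-23560686, plus strand) and 1153 in Hist1h1e (chr13:23620629-23622558, minus strand). Among core genes, Hist1h2ac (chr13:23681467-23683948, minus strand) ran on by 2010 bases, Hist1h4i (chr13:22040636-22041362, minus strand) by 330 and Hist1h4d (chr13:23581598-23582735, plus strand) by 770, while Hist2h2aa1 (chr3:96245497-96246082, plus strand) ended 35 bases behind its stem-loop. Hist1h2bc (chr13:23684199-23692908, plus strand) had 1 annotated transcript with 2 exons, whose 3′ UTR of 742 bases held no stem-loop. UMI counts also reflect how each end was captured and annotated, so they were not used to rank the genes by level.

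**Figure D1:**
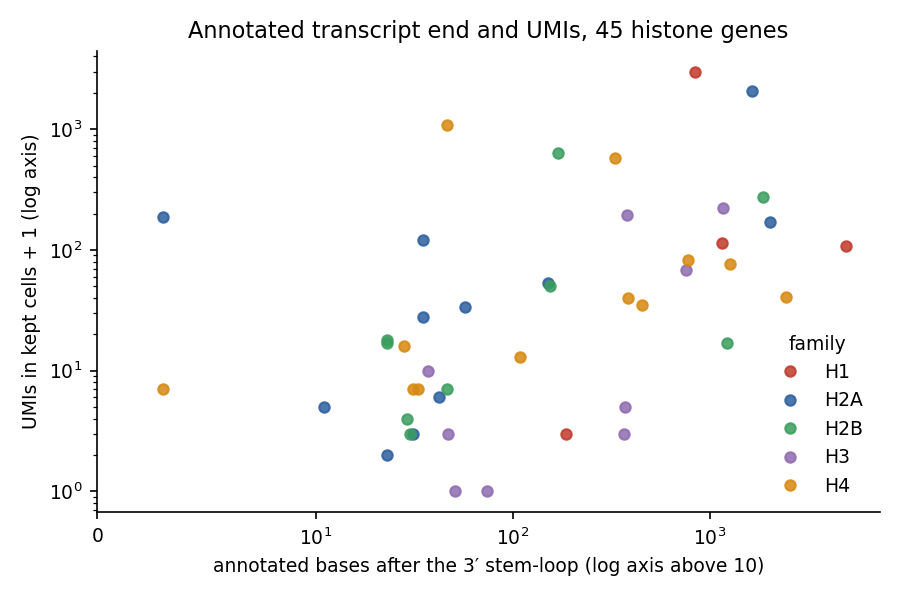
UMIs of each gene over all kept cells, plus 1 (log axis), against the annotated bases that follow its 3′ stem-loop (log axis above 10), for the 45 histone genes with a stem-loop, coloured by family. Each point is a gene. The 23 genes that run on by at least 100 bases have a median of 75 UMIs, against a median of 6 for the 22 that end near the stem-loop.

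Promoters of 61 members were matched in RefSeq (GRCm38.p6, 250 bases before to 50 after the start). The letters TATAAA, on either strand, were in 57.4% of them and in 14.2% of all 27025 promoters of that length, and CCAAT was in 85.2% against 37.9%. AAACACA, the H1 box, was in 14.8% against 7.14%, including 5 of the 6 H1 promoters. ATTTGCAT, the octamer element of many H2B promoters, was in 21.3% against 1.75%, in 7 H2A and 6 H2B promoters. The letters of the AP-1 site TGANTCA, the element that Fos and Jun proteins bind, were in 4.92% of the members' promoters and 7.93% of all, and those of the cAMP-response element TGACGTCA in 6.56% and 1.88%. The last 130 bases before the start are printed for 2 linker genes and a core gene that were higher without inhibitors in microglia, at chr13:23738677-23738806 (plus strand), chr13:23622559-23622688 (minus strand) and chr13:23683960-23684089 (minus strand). Capitals mark the matches to the first 4 motifs named above, and in Hist1h2ac the octamer, 130 bases before the start, and the farther CCAAT match, 98 bases before it, read on the other strand.
Hist1h1c: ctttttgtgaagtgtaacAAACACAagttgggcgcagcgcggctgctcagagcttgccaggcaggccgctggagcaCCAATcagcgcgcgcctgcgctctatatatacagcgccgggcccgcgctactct
Hist1h1e: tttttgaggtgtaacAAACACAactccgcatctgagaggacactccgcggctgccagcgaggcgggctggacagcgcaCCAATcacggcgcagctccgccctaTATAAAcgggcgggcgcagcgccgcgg
Hist1h2ac: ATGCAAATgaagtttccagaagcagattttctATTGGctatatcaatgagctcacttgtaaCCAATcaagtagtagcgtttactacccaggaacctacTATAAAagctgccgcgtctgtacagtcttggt

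In the kept cells, 59 of the 67 members had at least 1 UMI and 8 had none, 7 of these also over all 12487 barcodes. A further 27 had 1 to 9 UMIs, 17 had 10 to 99 and 15 had 100 or more. Together the members held 18939 UMIs, or 0.0913% of all UMIs, in 6341 of 9861 kept cells. H2B genes held 55.7% of them, H1 genes 17.0%, H2A genes 14.1%, H4 genes 10.4% and H3 genes 2.69%. Hist1h2bc alone held 48.8%, and the 6 genes with most UMIs held 87.5%. The libraries kept 4534452 to 6083105 UMIs with medians of 1439.5 to 1686 UMIs and 5.71% to 6.13% mitochondrial UMIs per cell, and pairs of libraries shared 9 to 13 cell barcodes, 0.345% to 0.458% of the smaller. Cells were clustered without the histone genes and without the study's activation genes, and clusters were called by standard markers, which gave 15 classes of which 9 had at least 20 cells in each animal and were tested. In the microglia-like class each of the 5 clusters passed at least 6 of 8 microglial markers, and the summed microglial markers lay between 13383 and 15333 CPM by total UMIs (per 1000000 UMIs of the class) in the 4 animals, with overlapping groups.

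Microglia-like cells, the brain's resident macrophages, held higher levels of linker histone RNA when inhibitors had been left out. The summed linker genes stood at 444 and 343 CPM (UMIs per 1000000 UMIs of the summed cells, after TMM scaling) without inhibitors and at 60.4 and 71.3 CPM with inhibitors, or 394 ± 71.4 against 65.8 ± 7.70 (SD, n = 2 animals each), a 5.98-fold difference. The summed core genes stood at 752 and 697 CPM against 367 and 420 CPM, or 724 ± 38.9 against 393 ± 37.1, a 1.84-fold difference. Neither sum overlapped between groups. Hist1h1c held 404 and 370 of the 487 and 437 linker UMIs without inhibitors and 59 and 85 of the 64 and 88 with inhibitors. The core UMIs numbered 824 and 887 without and 389 and 518 with inhibitors. Most were of Hist1h2bc (366 and 359 against 144 and 225) and Hist3h2a (226 and 203 against 159 and 198). Both folds therefore mainly follow these genes. With 2 animals against 2, the smallest p of an exact permutation test is 0.333 and the sums carry none, and the p-values given for single genes measure only the spread between these animals. The linker genes supplied 37.1% and 33.0% of the members' UMIs in these cells without inhibitors and 14.1% and 14.5% with inhibitors, whereas H2A genes supplied 23.0% and 23.3% against 39.3% and 35.1%.

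Of the 51 members with a UMI in microglia-like cells, 14 passed the filter on low counts. By edgeR's quasi-likelihood test with Benjamini-Hochberg adjustment over all 8718 genes tested (called where the adjusted p was under 0.05 and the log2 fold change exceeded 0.58 in size), 9 of the 14 were higher without inhibitors, 3 of 3 linker genes and 6 of 11 core genes. Over all genes, 0.459% were called higher. None of the 14 was lower by edgeR or by DESeq2, none had an unadjusted p under 0.05 in that direction, and 0.0229% of all genes were lower. Of the 14, 9 passed the filter only through the sums without inhibitors, so that they had to differ in that direction to be tested, and 7 of the 9 calls were among them. The other 5 (Hist1h1c, Hist1h2bc, Hist1h2be, Hist1h4h and Hist3h2a) held 2 calls, and their median log2 fold change, without over with inhibitors, was 0.23, against -0.0032 over all genes. Of these 5, 4 passed the filter in all 4 animals. Hist1h4h passed it only through the sums with inhibitors, a selection in the other direction that the median of 0.23 carries. The median over all 14 was 2.23 and carries both selections. In addition, 7 members stand on the activation lists of the study. Hist1h1c, Hist1h2bc, Hist1h4i and Hist2h2aa1 came from sorted microglia of other animals, and Hist1h1d, Hist1h1e and Hist1h2ac stand on the list made from these same libraries, so their place on it is not independent evidence of direction. Hist1h1d and Hist1h2ac are also named by the study for its sorted microglia.

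Among the linker genes, Hist1h1c (encoding H1.2) had 404 and 370 UMIs in the animals without inhibitors, against 59 and 85 in those with them. Its level was 330 ± 55.1 CPM against 62.3 ± 9.32 CPM, a log2 fold change of 2.39 (SE 0.13, edgeR adjusted p = 7.87e-47). Each animal without inhibitors was above each animal with them, and the gap exceeded the spread within either group. Hist1h1d (H1.3) had 44 and 40 UMIs against 2 and 2, or 35.8 ± 6.17 against 1.75 ± 0.189 CPM (log2 fold change 4.27, SE 0.48, edgeR adjusted p = 1.82e-14). Hist1h1e (H1.4) had 38 and 27 UMIs against 3 and 1, or 27.9 ± 9.52 against 1.82 ± 1.43 CPM (log2 fold change 3.90, SE 0.52, edgeR adjusted p = 2.66e-10). Of these 3, Hist1h1c passed the filter on low counts in all 4 animals, whereas Hist1h1d and Hist1h1e passed it only through the 2 animals without inhibitors, which held nearly all of their UMIs. The annotated 3′ end of Hist1h1e overlaps an exon of Hist1h2be on the same strand, so its counts are uncertain, whereas none of the last 300 windows of 90 bases of Hist1h1c or Hist1h1d was shared with another gene.

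Among the H2A and H2B genes, which encode the outer dimers of the core, Hist1h2ac had 31 and 30 UMIs without inhibitors, against 1 and 2. The ratio of its summed counts was 19.7 (95% exact counting interval 6.43 to 98.1, counting error only; edgeR adjusted p = 2.59e-10). Hist1h2bc had 366 and 359 UMIs against 144 and 225, or 308 ± 36.7 against 159 ± 32.8 CPM, a log2 fold change of 0.94 (SE 0.12, edgeR adjusted p = 7.70e-12). Its fold was smaller than those of the 3 linker genes. By total UMIs, its level with inhibitors (138 and 183 CPM) was below that of erythrocyte-like cells of the same libraries (248 and 195 CPM), and its level without inhibitors (331 and 279 CPM) was above theirs (151 and 92.8 CPM). Hist1h2bg had 15 and 20 UMIs against 4 and 1 (log2 fold change 2.70, SE 0.62, edgeR adjusted p = 0.00363). Hist2h2aa1 had 15 and 26 UMIs against 3 and 6 (log2 fold change 2.11, SE 0.50, edgeR adjusted p = 0.00711). Both calls were lost under DESeq2 and when single animals were left out, and the last 300 windows of Hist2h2aa1 were all shared with other histone genes, so its counts are uncertain.

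Histone H4 forms the centre of the spool together with H3, and 2 of its genes were higher without inhibitors in microglia-like cells. Hist1h4i had 28 and 42 UMIs against 8 and 5 (log2 fold change 2.36, SE 0.39, edgeR adjusted p = 1.20e-06), and the call was lost under DESeq2. Hist1h4d had 15 and 22 UMIs against 0 and 0. Taken against a floor of 3 counts over the group with inhibitors, it was at least 11.8-fold higher without inhibitors (edgeR adjusted p = 3.46e-07). By contrast, Hist1h4h had 7, 10, 9 and 12 UMIs in the order replicates 1 and 2 without and 1 and 2 with inhibitors, and its log2 fold change was -0.35 (edgeR adjusted p = 0.986). It passed the filter on low counts only through the sums with inhibitors, so this value carries that selection.

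A further 4 tested members were not called. Hist3h2a, an H2A gene outside the large cluster, had 226, 203, 159 and 198 UMIs in the same order, and its groups met (log2 fold change 0.23, edgeR adjusted p = 0.812). Hist1h2be had 15, 19, 16 and 15 UMIs (0.08, edgeR adjusted p = 0.988). Hist1h2ap with 16, 24, 11 and 5 UMIs (1.26, edgeR adjusted p = 0.344) and the H3 gene Hist2h3c1 with 15, 20, 6 and 13 UMIs (0.83, edgeR adjusted p = 0.809) were separated between groups without passing the test, and the last windows of both are shared with other genes. The 37 members too low to be tested held 76 and 112 UMIs together without inhibitors and 28 and 36 with inhibitors, at most 30 UMIs in any gene. Of the members with a UMI in these cells, 24 had none in either animal with inhibitors, among them Hist1h2bb with 6 and 9 UMIs and Hist1h3a with 5 and 3 UMIs in the animals without, and 2 had none in either animal without inhibitors. Of the 24, 23 were among the untested members, with at most 15 UMIs each. The share over all genes with such zeros was not computed, so these counts are not read as a result about the members.

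**Figure D2:**
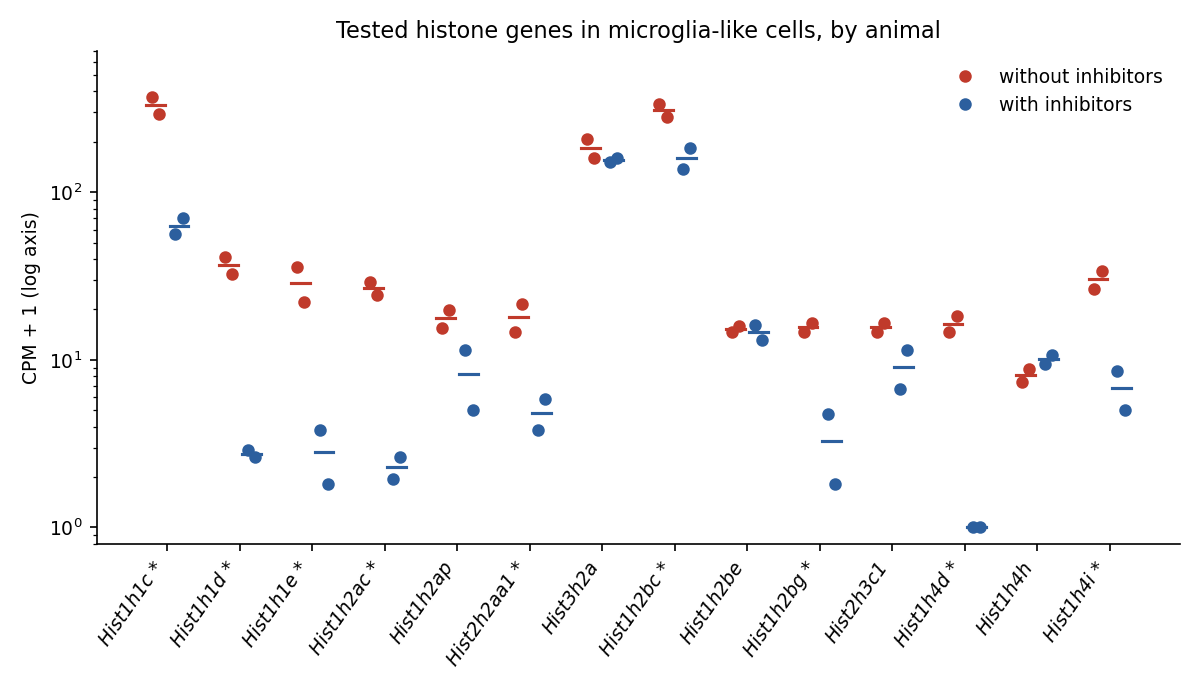
Level of the 14 tested histone genes in microglia-like cells of each animal, as CPM plus 1 on a log axis. Points are animals (red without, blue with inhibitors), bars are group means of CPM, and an asterisk marks the 9 genes called by edgeR. The 3 linker genes are separated between groups, from 330 to 62.3 CPM for Hist1h1c, while Hist3h2a, Hist1h2be and Hist1h4h are not called.

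The higher linker level was seen in most microglial clusters. In cluster 0, linker genes stood at 282 and 247 CPM by total UMIs without inhibitors and at 74.4 and 88.6 with inhibitors. In cluster 1 they stood at 594 and 396 against 60.1 and 68.0, and in cluster 6 at 392 and 395 against 49.8 and 49.95. Thus the groups were separated inside each of the 3 large clusters, although 519 of the 955 cells of replicate 2 with inhibitors lay in cluster 0. Cluster 16 held 4 and 5 linker UMIs against 1 and 0. Cluster 27 (41 cells, led by Lpl, Ccl12 and Cst7) held 28 cells of replicate 2 with inhibitors, and without this cluster the linker sum still differed by 2.55 on the log2 scale. Erythrocyte markers moved with the groups in these sums, at 531 and 781 CPM by total UMIs without and 176 and 306 with inhibitors over 8 markers, as did macrophage markers in the other direction, at 310 and 392 against 421 and 510. Oligodendrocyte markers (1013 and 954 against 1191 and 1766), ependymal, neutrophil and OPC markers were also lower, and fibroblast markers higher, in both animals without inhibitors. Of the 8 markers in each list, 3 neutrophil and 2 fibroblast markers were at 0 in all 4 animals and none of the erythrocyte, macrophage, oligodendrocyte, ependymal and OPC markers was. The part of these cells in the result was not tested.

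At the level of single cells, each cell was thinned to 1000 UMIs, which left out 74 and 133 shallower cells without inhibitors and 91 and 191 with inhibitors. A linker UMI was then present in 21.1% and 19.4% of microglia-like cells without inhibitors and in 5.86% and 6.88% with inhibitors, against 26.0%, 23.3%, 7.78% and 8.27% before thinning. A core UMI was present in 44.3% and 43.5% against 31.0% and 33.6%. The share with any member UMI was 52.4% ± 1.40 (SD, n = 2) against 36.2% ± 1.95, a difference of 16.1 percentage points. Erythrocyte-like cells, which have no nucleus and are led by haemoglobin genes, were set beside them as a rough background. In the same order of libraries, 7.58%, 5.06%, 3.38% and 6.69% of them had a linker UMI at the same depth. A core UMI was present in 17.3%, 14.4%, 38.7% and 25.4%, over 20, 31, 5 and 12 cells. Whether these shares measure background RNA or RNA of the erythrocyte-like cells themselves was not tested. The median depth of erythrocyte-like cells was 4807 to 6172 UMIs, against 1271 to 1469 in microglia-like cells. The linker and core shares of microglia-like cells with inhibitors lay at or inside these ranges and are not read as expression, whereas those without inhibitors lay above them.

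Linker UMIs without inhibitors were concentrated in some cells. At least 3 linker UMIs were found in 57 and 44 microglia-like cells without inhibitors and in 1 and 1 with inhibitors, and the most in any cell was 17 and 15 against 3 and 3. Cells with exactly 1 linker UMI numbered 102 and 118 against 47 and 71, so the groups differed more in cells with several UMIs than in cells with 1. Cells with a UMI of Fos, an immediate early transcription factor that marks activation, carried linker UMIs more often. Among cells of replicate 1 without inhibitors at 1000 UMIs, 46.0% of cells with a Fos UMI had a linker UMI, against 15.6% of cells without, and in replicate 2 these shares were 43.6% and 16.1%. For core genes they were 52.6% and 42.4% in replicate 1 and 56.1% and 41.8% in replicate 2. The replacement histone H2afz went the other way, at 35.5% and 39.2% in replicate 1 and 24.1% and 32.4% in replicate 2. Before thinning, 136 and 103 of the cells deep enough had a Fos UMI without inhibitors and 3 and 2 with inhibitors, so the split could not be made in the latter. Cells of an animal share a library, and these shares are given as a description with no test.

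**Figure D3:**
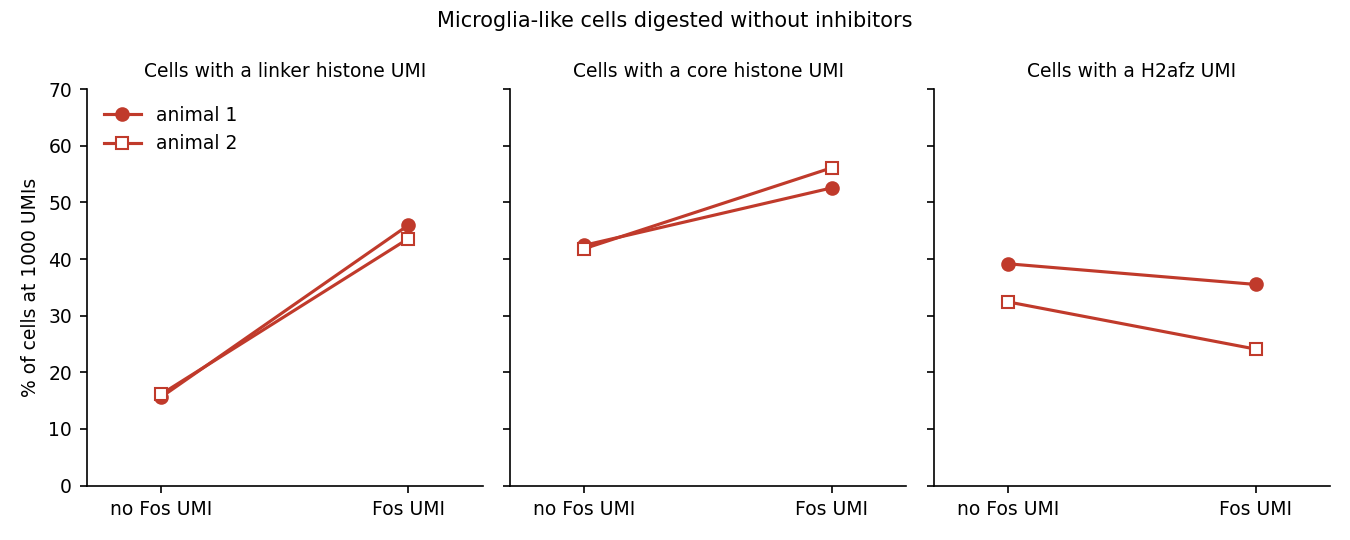
Share of microglia-like cells digested without inhibitors that hold a UMI of a linker gene, a core gene or H2afz, in percent at 1000 UMIs per cell, for cells with and without a Fos UMI. Lines join the 2 shares of an animal (replicates 1 and 2). Linker shares rise from 15.6% to 46.0% and from 16.1% to 43.6%, and H2afz shares do not rise.

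Genes of related pathways were compared from lists that hold no clustered histone gene. Of 11 replacement histone genes, 9 were tested in microglia-like cells and 0 were called by edgeR in either direction, with 2 at an unadjusted p under 0.05. Their median log2 fold change was 0.03. H3f3b, which encodes the replacement histone H3.3, had 2589, 2459, 1549 and 1850 UMIs in the same order and a log2 fold change of 0.54 (edgeR adjusted p = 9.44e-06), under the fold limit. H3f3a, which encodes the same protein, differed by 0.03, H2afz by 0.04 and H1f0, the replacement linker histone, by 0.25, each with groups that met. Of 15 genes for transcription and 3′ end processing of histone RNA, 13 were tested, 0 were called and 1 had an unadjusted p under 0.05, with a median of 0.11. Slbp itself had 110, 131, 86 and 108 UMIs (log2 fold change 0.27, edgeR adjusted p = 0.843). Of 27 genes for DNA replication and division, 4 were tested, 0 were called and 0 had an unadjusted p under 0.05, with a median of -0.04. Among them, Pcna, the clamp of the replication fork, had 31, 40, 37 and 37 UMIs, the proliferation marker Mki67 had 2, 1, 0 and 1, and Top2a, a topoisomerase of dividing cells, had 5, 1, 5 and 1, so that division genes were near the limit of detection in both groups. For reference, the activation gene Fos had 859, 529, 4 and 3 UMIs and the heat shock gene Hspa1a 367, 291, 5 and 5. Hspa1a was called (log2 fold change 5.97, edgeR adjusted p = 4.71e-40) and Fos, whose 2 animals without inhibitors differed, was not (edgeR adjusted p = 0.475).

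Over all cells of an animal, the groups were closer. The linker sum was 201 and 189 CPM without inhibitors and 108 and 121 CPM with inhibitors, or 195 ± 8.87 against 115 ± 9.09, a 1.70-fold difference, and the core sum was 789 and 862 against 698 and 673 CPM, or 825 ± 51.6 against 685 ± 17.9, a 1.20-fold difference. In such sums, fewer cells of a type and less RNA per cell cannot be told apart. Of 22 members tested, 1 was called, against 0.0435% of all genes. This was Hist1h1d, with 50 and 49 UMIs against 3 and 5 (log2 fold change 3.51, SE 0.41, edgeR adjusted p = 0.0484), of which the microglia-like cells held 44 and 40 against 2 and 2. The call was lost with other size factors, without cluster 27 and without either animal with inhibitors. At an unadjusted p under 0.05 stood 10 of the 22 members, against 6.30% of all genes, and DESeq2 called 4 members higher and 44 of all 13788 genes. Hist1h2ac had 70, 71, 15 and 14 UMIs (2.19, edgeR adjusted p = 0.0786), Hist1h1c 857, 1011, 497 and 624 (0.65, edgeR adjusted p = 0.141), and Hist1h1e 53, 43, 5 and 12 (2.42, edgeR adjusted p = 0.172). Each of these 3 was separated between groups without passing the test. Of the 22 members, 6 passed the filter only through the sums without inhibitors, Hist1h1d among them. The other 16 held 0 calls and a median of 0.32, against -0.0065 over all genes. The count of 10 at an unadjusted p under 0.05 was not split in this way and carries the selection.

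No member was called higher in any of the other 8 classes tested. In astrocyte-like cells 10 members were tested and 0 called by edgeR or DESeq2, against 0.0599% of all genes called in either direction. Hist1h1c had 80, 157, 80 and 91 UMIs there in the order of libraries given above, with a log2 fold change of 0.02 (edgeR adjusted p = 0.997). The same count of 0 held for 5 members in oligodendrocyte-like cells (0.246% of all genes called), 5 in endothelial-like cells (0.0362%), 3 in mural-like cells (0.0854%), 3 in neuron-like cells (0.151%), 6 in ependymal-like cells (0% of all genes called) and 2 in macrophage/monocyte-like cells (0.684%), by edgeR and by DESeq2. At an unadjusted p under 0.05 stood 0 members in astrocyte-like (5.37% of all genes), endothelial-like (5.93%) and macrophage/monocyte-like cells (5.70%), 1 each in oligodendrocyte-like (9.97%), mural-like (6.19%) and neuron-like cells (2.30%) and 2 in ependymal-like cells (3.98%). In the last, Hist1h1c had 43, 95, 41 and 41 UMIs, or 280 and 376 CPM without inhibitors and 164 and 229 with inhibitors, and did not pass (log2 fold change 0.80, edgeR adjusted p = 1.00). In neuron-like cells, Hist1h2bc had 47, 7, 10 and 9 UMIs. By total UMIs it stood at 238 and 102 CPM without inhibitors and at 95.9 and 55.5 CPM with inhibitors. Its difference (1.34, edgeR adjusted p = 1.00) did not pass, and replicate 1 without inhibitors was the highest. The gene passed the filter on low counts there only through the sums without inhibitors.

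Macrophage/monocyte-like cells, the border and blood relatives of microglia, held 28 to 40 cells per animal. Hist1h1c had 6 and 12 UMIs without inhibitors, against 0 and 1, too few to be tested, and the ratio of the summed counts was 11.3 (95% exact counting interval 1.78 to 469, counting error only). Hist1h2bc had 14, 16, 6 and 3 UMIs (log2 fold change 1.05, edgeR adjusted p = 0.959), and Hist3h2a had 12, 15, 8 and 8 (0.08, edgeR adjusted p = 0.992). The direction of Hist1h1c was that of the microglia-like cells, at a depth of 52496 to 86746 UMIs per library.

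Choroid plexus-like cells, the secretory epithelium of the ventricles, gave the reverse direction for most members tested. Of 6 members tested, 0 were called higher without inhibitors, where 4.81% of all genes were, and 2 were called lower, where 1.21% of all genes were. Of the 6, 1 had a log2 fold change above 0, at 0.78. Hist3h2a stood at 28.5 and 39.7 CPM by total UMIs without inhibitors and at 20.1 and 26.8 with them. Summed H2A genes stood at 50.9 and 79.4 against 45.2 and 49.2. Hist1h1c had 107, 136, 110 and 76 UMIs, or 178 ± 6.55 CPM without and 290 ± 46.5 with inhibitors, a log2 fold change of -0.67 (SE 0.16, edgeR adjusted p = 0.00372). Hist1h4h had 40, 54, 38 and 40 UMIs, or 68.4 ± 0.394 against 129 ± 57.4 CPM (-0.81, SE 0.26, edgeR adjusted p = 0.0365). In both genes the animals with inhibitors were above those without, and replicate 2 with inhibitors was the highest. Hist1h2bc differed by -0.48 (edgeR adjusted p = 0.000374), under the fold limit. These libraries differed in other ways, since median UMIs per cell were 2736, 2378.5, 1931 and 1327 in the order of libraries and the 8 summed choroid plexus markers took 358000, 279331, 224855 and 213962 CPM by total UMIs, with ependymal markers at 623, 692, 918 and 854, oligodendrocyte markers at 506, 348, 620 and 1050 and erythrocyte markers at 418, 571, 208 and 317. Of 8 markers each, 2 erythrocyte markers were at 0 and none of the other 3 lists. Their part in the result was not tested. Both calls were lost under DESeq2, with a stricter mitochondrial filter and without replicate 2 with inhibitors, and of all genes 21.5% had an unadjusted p under 0.05.

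**Figure D4:**
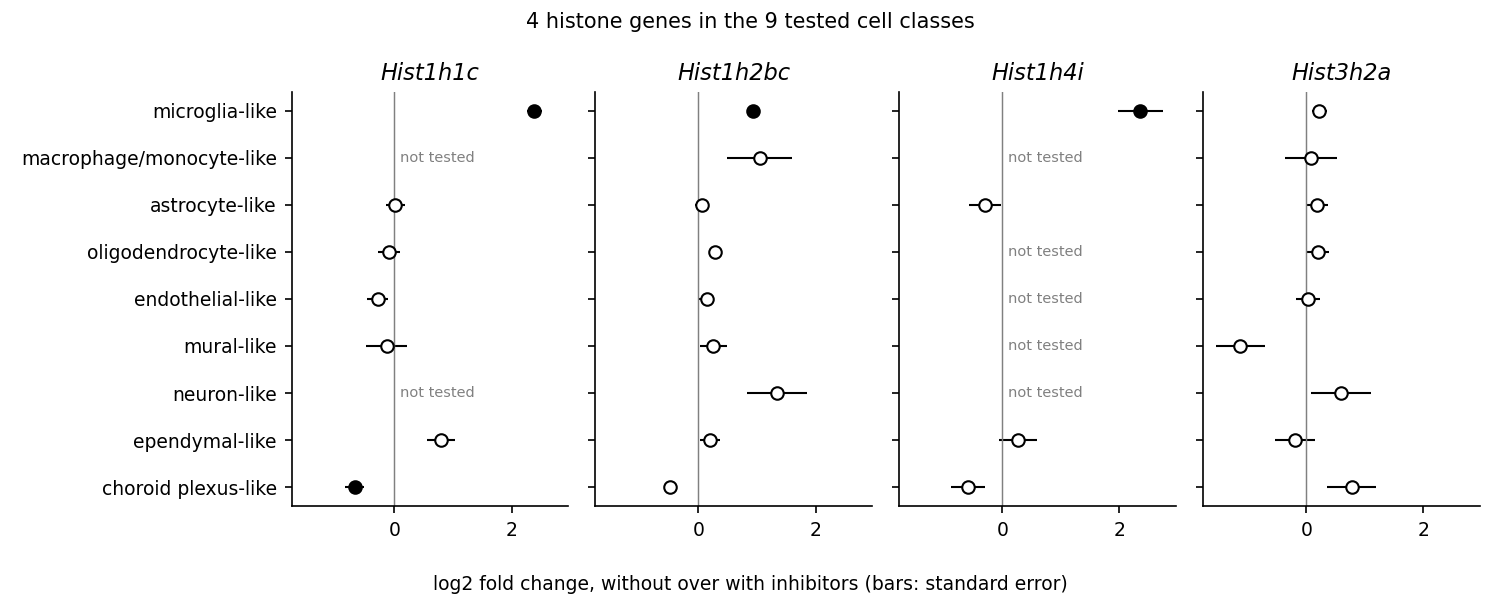
Log2 fold change, without over with inhibitors, of 4 histone genes in the 9 tested classes, with the standard error as bars. Filled points are genes called by edgeR, open points are tested and not called, and classes without a test are marked as such. Hist1h1c stands at 2.39 in microglia-like and at -0.67 in choroid plexus-like cells, and Hist3h2a is called in no class.

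Whether the effect of inhibitors on a gene was larger in microglia-like cells than in another class was tested by an interaction term in edgeR, with the animal as a block. In 98 tests of a member against a class, 15 effects were larger in microglia-like cells and 0 were smaller, for 4 members in all. Against astrocyte-like cells 3 of 16 members had a larger effect (0.144% of all genes), against choroid plexus-like cells 4 of 15 (0.364%), against endothelial-like cells 3 of 14 (0.363%) and against ependymal-like cells 2 of 15 (0.0829%). Against oligodendrocyte-like cells these were 2 of 15 (0.172%) and against mural-like cells 1 of 7 (0.163%). Hist1h1c accounted for 6 of the 15, with differences of 1.58 to 3.09 on the log2 scale. Against macrophage/monocyte-like cells the count was 0 of 8 (0.0128% of all genes) with 0 at an unadjusted p under 0.05, and against neuron-like cells 0 of 8 (0.04%) with 2. The difference for Hist1h1c was -1.21 (SE 1.31) against macrophage/monocyte-like and 1.70 (SE 0.78) against neuron-like cells, so that with these errors neither a larger nor an equal effect could be told. The median difference over the members ran from -0.73 (macrophage/monocyte-like) to 1.32 (astrocyte-like), against -0.06 to 0.01 over all genes. A member could pass the low-count filter of these fits through the microglia-like sums without inhibitors alone, so these counts and medians carry that selection. Without replicate 2 with inhibitors, the count of 15 became 7.

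Across classes, levels were set side by side as CPM scaled by the total UMIs of a class alone, averaged over the 4 animals, as a description with no test. Over both groups, the mean of the summed core genes was highest in ependymal-like cells, the ciliated lining of the ventricles, at 1816 ± 82.2 (SD, n = 4), followed by choroid plexus-like cells at 1566 ± 428, neural progenitor-like cells at 1362 ± 283, oligodendrocyte-like cells at 919 ± 137, astrocyte-like cells at 865 ± 79.9, olfactory ensheathing-like cells at 838 (2 animals), fibroblast-like cells at 710 ± 120 and OPC-like cells (oligodendrocyte precursors) at 580 ± 124. Microglia-like cells stood at 557 ± 187, and macrophage/monocyte-like (400 ± 125), neuron-like (398 ± 175), endothelial-like (385 ± 37.2) and mural-like cells (344 ± 47.9) were the lowest of the 9 tested classes. Neighbours in this order overlapped between animals. On this scale first place turned on the group, since ependymal-like and choroid plexus-like cells stood at 1778 and 1241 without inhibitors but at 1855 and 1891 with them. In choroid plexus-like cells the 8 summed choroid plexus markers took 358000, 279331, 224855 and 213962 CPM in the order of libraries given above. This leaves a smaller and unequal share for all other genes there, and the order of classes was not recomputed without these markers. Erythrocyte-like cells, the rough background used above, stood at 288 for core genes, with animals from 155 to 523, and at 50.2 for linker genes. The core range takes in the means of the 4 lowest tested classes. For linker genes the order over both groups was ependymal-like at 268 ± 93.8, choroid plexus-like at 243 ± 87.2, fibroblast-like at 238 ± 57.1, neural progenitor-like at 233 ± 164, olfactory ensheathing-like at 229 (2 animals) and microglia-like at 228 ± 191, then astrocyte-like at 128 ± 22.5, oligodendrocyte-like at 112 ± 16.5, mural-like at 94.7 ± 35.5, endothelial-like at 92.1 ± 17.1, macrophage/monocyte-like at 74.1 ± 75.0 and neuron-like at 58.5 ± 29.3, again with each pair of neighbours overlapping. The top of that order turned on the group too, with ependymal-like, fibroblast-like and choroid plexus-like cells at 340, 245 and 172 without inhibitors and at 197, 231 and 314 with them. So did the place of microglia-like cells, since their 2 animals without inhibitors stood at 440 and 339 and their 2 animals with inhibitors at 61.4 and 71.5. Macrophage/monocyte-like cells moved the same way, with linker genes at 139 and 138 against 0 and 19.0, from 11, 12, 0 and 1 UMIs. Their core genes stood at 544 and 461 without and at 329 and 267 with inhibitors.

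Single members set classes apart. Hist1h4h stood at 499, 419, 596 and 690 CPM by total UMIs in ependymal-like cells, a mean of 551 ± 117, and the next class, choroid plexus-like, at 101 ± 54.1 did not overlap with it. Of the last 300 windows of Hist1h4h, 51% are shared with other H4 genes, so its counts here and in the comparisons above are uncertain. Summed H4 genes accordingly stood at 770 ± 126 in ependymal-like cells and 180 ± 66.8 in choroid plexus-like cells. Hist1h2bc was highest in choroid plexus-like cells at 1272 ± 371, then in ependymal-like cells at 715 ± 89.5, without overlap, and in oligodendrocyte-like cells at 594 ± 112. In neural progenitor-like cells, where Mki67 had 11, 10, 8 and 7 UMIs and Top2a 46, 58, 17 and 13, Hist1h2ap stood at 430 ± 150, against 11.9 ± 6.20 in microglia-like cells, and its annotated transcript ends 3 bases behind the stem-loop. Its last 300 windows are all shared with other genes, so its counts are uncertain. Summed H2A genes stood at 810 ± 128 in neural progenitor-like cells and at 214 ± 50.7 in microglia-like cells, the next class, without overlap. Hist3h2ba, an H2B gene of the small cluster on chromosome 11, stood at 290 ± 61.8 in neural progenitor-like, 128 ± 26.3 in oligodendrocyte-like and 118 ± 45.8 in neuron-like cells, but at 9.05 ± 2.00 in astrocyte-like and 5.48 ± 2.29 in microglia-like cells. Its neighbour Hist3h2a stood at 280 ± 142 in neural progenitor-like cells, 169 ± 23.9 in microglia-like cells and 156 ± 11.7 in macrophage/monocyte-like cells, and at 28.8 ± 8.15 in choroid plexus-like cells, the lowest among classes with at least 20 of its UMIs. The H2B gene Hist2h2be stood at 28.9 ± 5.10 in astrocyte-like, 28.2 ± 7.86 in ependymal-like and 22.9 ± 3.26 in mural-like cells, and the H3 gene Hist2h3c2 at 24.6 ± 9.86 in ependymal-like and 17.9 ± 3.76 in astrocyte-like cells, with overlap in each case. For Hist2h3c2, 62.0% of all windows of 90 bases are shared with other genes, and 0% of the last 300.

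**Figure D5:**
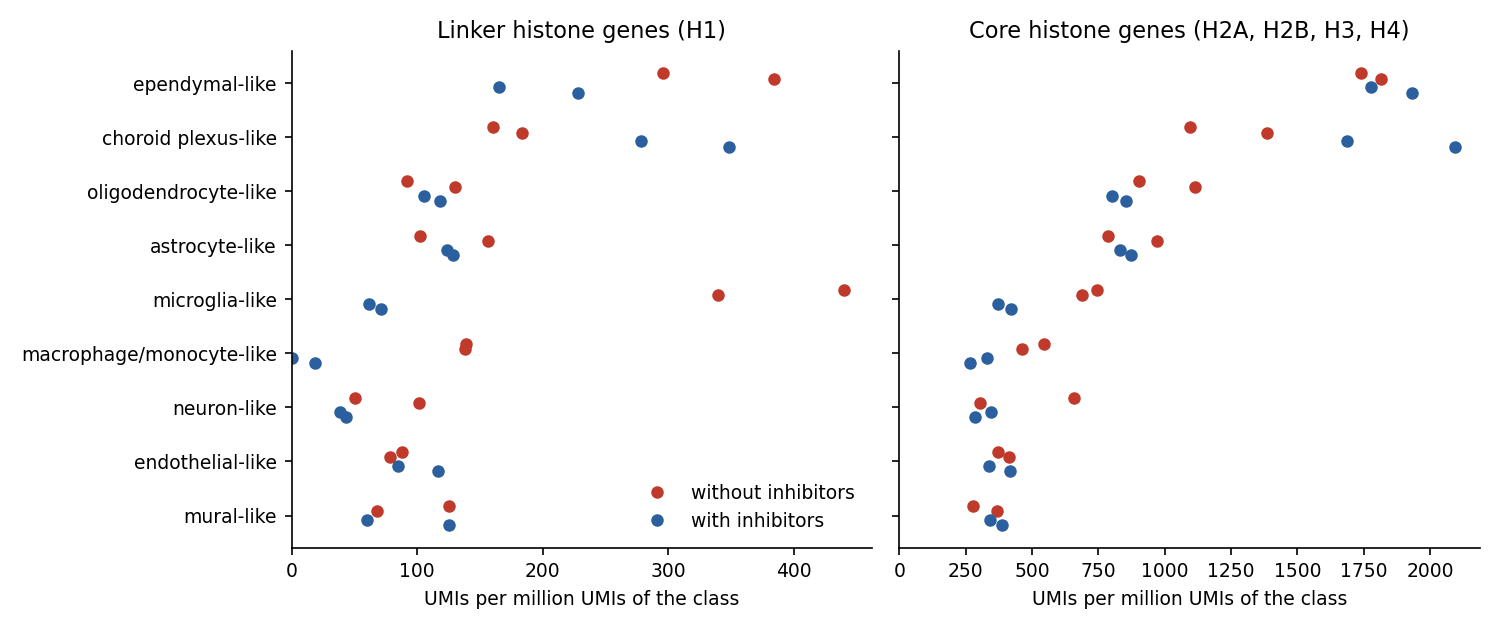
Summed linker (left) and core (right) histone genes in the 9 tested classes, as CPM by total UMIs of the class on linear axes. Points are animals (red without, blue with inhibitors). In microglia-like cells linker genes lie at 339 to 440 without and 61.4 to 71.5 with inhibitors, while core genes are highest in ependymal-like cells without inhibitors (mean 1778) and in choroid plexus-like cells with inhibitors (mean 1891).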

How the data were processed

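Single-cell RNA was measured in whole brains of 4 mice, 1 library each. The authors deposited raw UMI counts per gene and barcode, made with Cell Ranger 3.0.0 on mm10, as the labels state; their later cell filters were not applied. Barcodes with under 400 genes or over 20% mitochondrial UMIs were removed, as were 206 doublets (0.8% per 1000 barcodes, by simulated doublets), which left 9861 of 12487. Cells were clustered (2000 variable genes, 30 components, 15 neighbours, Leiden resolution 1; Python 3.11.15, scikit-learn 1.9.0, leidenalg 0.10.2) without histone and activation genes, and 33 clusters were named by at least 3 of 8 markers at a log2 fold of at least 1 in at least 10% of cells.

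Counts summed per animal and class entered edgeR 4.0.16 (R 4.3.3; TMM scaling, filterByExpr on low counts, robust quasi-likelihood F test with group as the only term, Benjamini-Hochberg adjustment), which was tested on simulated data first. Genes were called where the adjusted p was under 0.05 and the log2 fold exceeded 0.58 in size. Alternatives were DESeq2 1.42.0, other size factors, filters, clusterings and samples. The shares of cells at 1000 UMIs are averages over all possible draws from each cell. Stem-loops were sought by the consensus of histone stem-loops in GENCODE transcripts of GRCm38, and windows of 90 bases shared between genes marked uncertain counts. Named genes were all members called anywhere or with at least 100 UMIs, plus Fos, Hspa1a, Mki67, Top2a, Pcna, Slbp, H3f3a, H3f3b, H2afz and H1f0. A member with 0 UMIs in a group could also be named, as Hist1h2bb and Hist1h3a were, and Hist2h4 is named only for its stem-loop. The members and gene lists were chosen with earlier results of these data known. Intervals and floors cover counting error only.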

Additional observations from a re-analysis of the deposited data

Results flagged for a closer look

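The effect of leaving out inhibitors was larger in microglia-like cells than in another class for 15 combinations of gene and class, by the interaction test in edgeR with Benjamini-Hochberg adjustment over all genes of each pair of classes. All values are differences of log2 fold changes, and each effect comes from 2 animals against 2. For Hist1h1c the difference was 2.38 against astrocyte-like (adjusted p = 3.62e-24), 3.09 against choroid plexus-like (3.70e-35), 2.63 against endothelial-like (2.00e-28), 1.58 against ependymal-like (0.000353), 2.49 against mural-like (2.33e-08) and 2.47 against oligodendrocyte-like cells (1.19e-23). For Hist1h2bc it was 0.90 against astrocyte-like (adjusted p = 2.42e-05), 1.45 against choroid plexus-like (1.73e-15), 0.78 against endothelial-like (0.000588) and 0.64 against oligodendrocyte-like cells (0.00706). For Hist1h4i it was 2.69 against astrocyte-like (adjusted p = 2.20e-05), 2.87 against choroid plexus-like (5.98e-05), 2.81 against endothelial-like (0.0138) and 2.11 against ependymal-like cells (0.0455). For Hist1h4d against choroid plexus-like cells the fitted value was 7.94 (adjusted p = 0.0296), which rests on a group with 0 UMIs in microglia-like cells and depends on the prior count, so it is not a size of effect. Hist1h4i and Hist1h4d passed the filter on low counts in microglia-like cells only through the sums without inhibitors. Their interaction terms may carry that selection. In the choroid plexus-like comparisons, part of the difference comes from lower values without inhibitors in the choroid plexus-like cells themselves. With 2 animals in each group, no test for a single animal far from the rest was possible.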

How the results depend on the processing

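In microglia-like cells 9 members were called higher (40 of all 8718 genes). This count ran from 6 with DESeq2 (30 of all 8718 genes) to 10 with no filter on low counts (48 of all 15886 genes). It was lower than 9 when single animals were left out. Over all cells the single call became 4 with DESeq2 (44 of all 13788 genes, against 6 in the edgeR fit) and 4 with no filter (81 of all 19972 genes). It became 0 with DESeq2-type size factors (4 of all 13788 genes) and 0 without cluster 27 (5 of all 13785 genes). The last alternative was chosen after seeing the data, as were those for the lower calls in choroid plexus-like cells. The count also moved when some single animals were left out. The replicate numbers of the labels do not pair the animals. With them as a replicate block the counts were 2 over all cells (29 of all 13788 genes) and 9 in microglia-like cells (47 of all 8718 genes). In the other 8 classes the count of 0 held in the alternatives that kept all 4 animals. It did not hold in ependymal-like cells when replicate 1 without inhibitors was left out. The 15 larger effects in microglia-like cells ran from 7 to 13 without single animals and from 14 to 16 otherwise. The 2 lower members in choroid plexus-like cells became 0 with DESeq2, 0 at 10% mitochondrial UMIs, 1 with no filter, 1 with doublets kept and 0 to 3 without single animals. The linker sum over all cells moved from 0.77 to 0.88 on the log2 scale at 10% mitochondrial UMIs, the core sum from 0.27 to 0.19 when scaled by total UMIs, and the share of microglia-like cells with a member UMI differed by 14.2 percentage points at 700 UMIs per cell. Without single animals these ranged over 0.69 to 0.85, 0.20 to 0.33 and 14.7 to 17.5, and the linker and core sums of microglia-like cells over 2.38 to 2.75 and 0.79 to 0.98. The cause of these moves was not tested. For 17 values of single members, 176 of 200 alternatives kept direction and side of the threshold, 23 lost the call, and 1 changed the sign of a member that was not called (Hist1h2be in microglia-like cells, from 0.08 to -0.08 without replicate 2 with inhibitors), and 8 of the 23 concern Hist1h2bg and Hist2h2aa1 in microglia-like cells. Members with few UMIs outside microglia-like cells limit what could be seen there.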

Other observations

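Neural progenitor-like cells held 17 to 36 cells per animal, too few to be tested. Their summed core genes stood at 1319, 1498, 1643 and 987 CPM by total UMIs (per 1000000 UMIs of the class) in the order replicates 1 and 2 without and replicates 1 and 2 with inhibitors, and Hist1h2ap at 215, 445, 510 and 552, so the groups overlapped for the core sum and the animals with inhibitors were higher for Hist1h2ap. The counts of Hist1h2ap are uncertain, as given above. Barcodes removed before the analysis, by the filters or as doublets, held members at 353, 357, 470 and 438 CPM by total UMIs in the same order, the animals with inhibitors being higher there.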
